A study of Mus musculus with 24 samples.

Results

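Loss of the aryl hydrocarbon receptor (AhR) was compared with its presence in bone marrow-derived macrophages (BMDMs) that had received no LPS. The comparison used 12 of the 24 libraries of the series, 6 labelled AhR-KO and 6 labelled wildtype (WT), chosen by genotype and by the absence of stimulation. It took in every gene of the count table, 16593 of 55421 with enough reads to be tested. The question was which functions, beyond the enzymes of eicosanoid synthesis, differ in AhR-deficient alveolar-like macrophages at rest.

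WT marrow was from C57BL/6J mice, and AhR-KO marrow was from mice with the germline tm1Bra allele of Ahr. Progenitors in that marrow therefore lacked AhR before the culture began. Its strain name, B6.129-Ahr tm1Bra/J, records that the targeted segment came from a 129 strain. The study's mice were young adults of both sexes. Both groups were started in 10 ng/ml GM-CSF and 2 ng/ml TGF-β, a cytokine pair used to obtain cells that resemble alveolar macrophages. The study's methods describe a later exchange of part of the medium for medium with more of both cytokines. The other 12 libraries were from cells given LPS at 97 EU/ml for 24 h from day 6, and their values stand beside the unstimulated ones only where LPS is named. A pulse of the calcium ionophore A23187 (5 µM, 10 min) before harvest is described for the cultures in general, and the labels do not say whether unstimulated wells received it. By the study's description the libraries of a group came from separate animals. The labels do not say which, or whether LPS-treated and unstimulated libraries share animals, and the p-values measure the spread between these libraries.

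AhR is a ligand-activated transcription factor of the basic helix-loop-helix PAS family, held in the cytosol by chaperones until it binds a dietary, microbial, tryptophan-derived or xenobiotic ligand. It then enters the nucleus, pairs with ARNT and binds DNA elements with the core GCGTG, from which it drives detoxifying cytochromes and its own repressors, Ahrr and Tiparp. In barrier tissues it is known for its part in Langerhans cells, innate lymphoid cells and intraepithelial lymphocytes. GM-CSF and TGF-β are the cytokines on which alveolar macrophages depend, and Langerhans cells need TGF-β as well.

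In the unstimulated libraries, 45106052 to 76992663 reads were assigned to genes, and 17412 to 20800 genes had a read. A gene was called a differentially expressed gene (DEG) when its adjusted p was at most 0.05 with a log2 fold change of 1 or more in either direction. Of the genes tested, 744 were DEGs (4.48%), 152 of them higher in AhR-KO BMDMs (0.916%) and 592 lower (3.57%). The median fall was 7.61-fold and the median rise 3.02-fold, with 48 genes without a read in AhR-KO and 3 without a read in WT libraries set at the bound that 3 counts over the group allow. By the same reckoning 168 genes fell by more than 16-fold and 11 rose as much. In 854 genes tested (5.15%) the libraries of the 2 genotypes did not overlap, and these included 519 of the DEGs. Expression is given below as CPM, a gene's reads scaled to the size of the library, with the lowest, the highest and, in brackets, the median of 6 libraries, and the value after ± is the standard error (SE) of the log2 fold change of AhR-KO over WT, over 6 and 6 libraries.

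**Figure D1:**
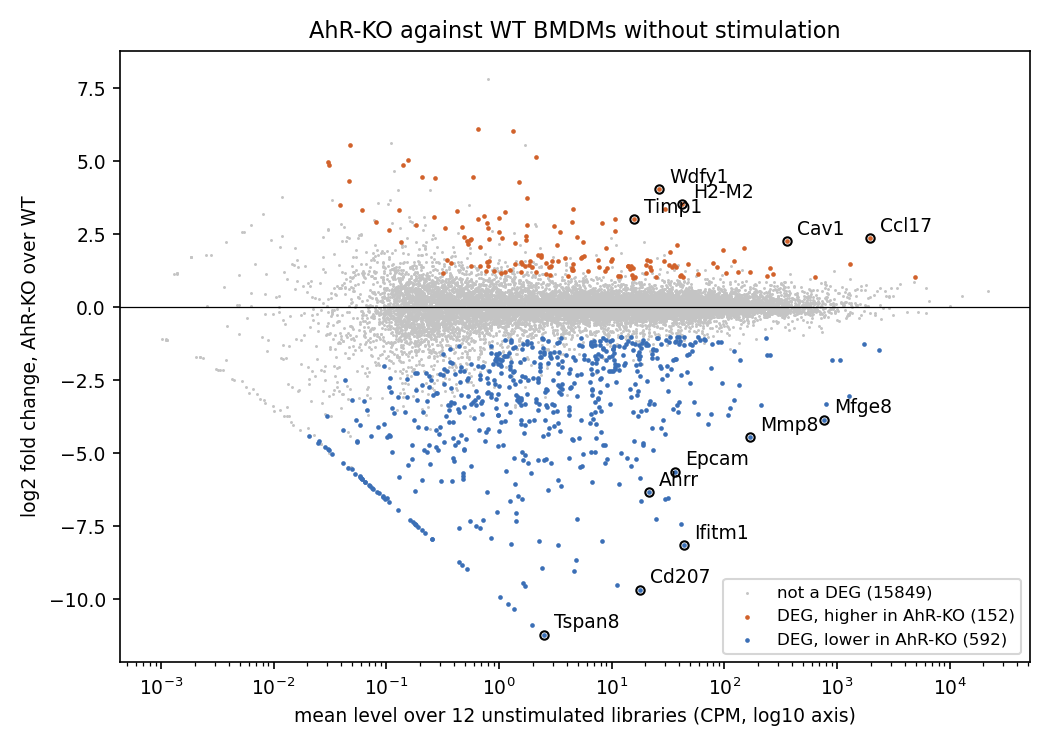
Mean level over the 12 unstimulated libraries (log10 axis, CPM) against the log2 fold change of AhR-KO over WT for all 16593 genes tested. DEGs are coloured, 152 higher and 592 lower, and 12 of the genes described in the text are named; the lower side reaches further from 0 than the higher side.

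A few libraries stood apart. In WT library 33 and AhR-KO library 19 the slope of expression on transcript length was 0.114 and 0.0952, against 0.280 to 0.529 in the other 10. WT library 34 had 0.0316 CPM of Y-linked transcripts, against 155 to 270 CPM in the others. Leaving out libraries 33 and 19 gave 735 DEGs, 145 higher and 590 lower. Among the 389 DEGs that fell and had a mean of at least 1 CPM, library 33 was the lowest of the 6 WT libraries in 163 and library 25 in 123, and AhR-KO library 27 was the highest of the 6 AhR-KO libraries in 142. Where a named value moves by over 1.5 times without 1 library, the value without it is given beside it, or that library is named where AhR-KO libraries held no other read or none at all.

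Macrophage markers were present in both genotypes. By edgeR's quasi-likelihood test none of 8 was a DEG, with 4 at an unadjusted p of at most 0.05 and none by DESeq2 or limma-voom. Of the 8, 4 had a fitted log2 fold change above 0 and 4 below. Adgre1, which encodes F4/80, was at 511 to 900.5 CPM (median 718) in WT and 357 to 572 CPM (median 404) in AhR-KO BMDMs, and Lyz2, the myeloid lysozyme, was at 13362 to 27958 CPM (median 16356) in WT and 19560 to 32376 CPM (median 27912) in AhR-KO BMDMs. The 13 alveolar macrophage markers summed to 8020 to 10607 CPM in WT and to 10125 to 13392 CPM in AhR-KO libraries. Of these markers 3 rose and none fell. Ahr itself was read in both genotypes, at 9.6 to 43.1 CPM (median 30.7) in WT and 4.74 to 11 CPM (median 7.4) in AhR-KO BMDMs (log2 fold change of -1.93 ± 0.36, adjusted p = 0.000971). Those counts cover all exons, so remaining reads do not show that a working receptor was made.

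Among the genes of the AhR pathway the feedback repressor differed most. Ahrr, the repressor that competes with AhR for ARNT, was at 13.3 to 66.1 CPM (median 46.7) in WT and 0.113 to 1.05 CPM (median 0.443) in AhR-KO BMDMs, an 81.1-fold fall (log2 fold change of -6.34 ± 0.566, adjusted p = 1e-07). The 2 genotypes did not overlap. Of 16 pathway and target genes tested, 5 fell and none rose, 31.25% called beside 4.48% of all genes tested. The others were Cyp1b1, a cytochrome of xenobiotic metabolism (log2 fold change of -3.32 ± 0.743), Serpinb2, a protease inhibitor (-3.59 ± 0.629, not called by limma-voom), Ahr, and Slc7a5, a carrier of large neutral amino acids including tryptophan and kynurenine (-1.29 ± 0.202). The other 11 genes did not pass the test. Tiparp, a further feedback repressor, was at 55.6 to 87.3 CPM (median 76.9) in WT and 45.5 to 57 CPM (median 51.7) in AhR-KO BMDMs (adjusted p = 0.088).

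The promoters were searched for the core of the AhR element, GCGTG, and for a longer form of it, TNGCGTG, on both strands, from 250 bases before to 50 bases after the start of each gene, and the shares below count matches in all of that window. RefSeq promoters on GRCm38.p6 were matched for 541 of the 744 DEGs. The windows shown are those of the 4 genes named here that fell, had a mean of at least 1 CPM and held the longer form before the start. It is in capitals, with up to 20 bases on each side that lie before the start.
Hic1, chr11:75170325-75170371: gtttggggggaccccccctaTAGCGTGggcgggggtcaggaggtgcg
Ahrr, chr13:74292334-74292380: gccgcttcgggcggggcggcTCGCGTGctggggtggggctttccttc
Unc5b, chr10:60831614-60831660: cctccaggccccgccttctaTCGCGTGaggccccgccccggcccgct
Mycl, chr4:122995891-122995930: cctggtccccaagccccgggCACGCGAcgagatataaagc
Each is printed 5′ to 3′ on the strand of its gene; Hic1, Ahrr and Unc5b lie on the minus strand and Mycl on the plus strand, and in Mycl the element reads on the opposite strand of the gene. The Ahrr element lay 29 to 23 bases before the start. GCGTG was found in 36.2% of 431 promoters of genes that fell, in 31.8% of 110 promoters of genes that rose and in 50.1% of 10515 promoters of genes tested. For TNGCGTG the shares were 5.80%, 5.45% and 8.01%. A match is a description of these letters in this window only.

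Hic1, a transcriptional repressor, was at 0.0681 to 3.52 CPM (median 2.14) in WT BMDMs and had no read in any AhR-KO library. With 3 counts set in place of none over the group, it was at least 282-fold lower (adjusted p = 0.000637). Unc5b, a netrin receptor, was at 1.77 to 30.5 CPM (median 19.9) in WT and 0 to 1.59 CPM (median 0.394) in AhR-KO BMDMs (log2 fold change of -5.21 ± 1.05 and -6.09 without AhR-KO library 36, adjusted p = 0.00209). Mycl, a MYC family factor used by dendritic cells, was at 2.49 to 10.6 CPM (median 7.24) and 0 to 0.886 CPM (median 0.255) (log2 fold change of -4.25 ± 0.723, adjusted p = 0.000369). For each of these 3 genes every WT library exceeded every AhR-KO library.

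Genes of Langerhans cells and dendritic cells held falls and rises. Of 35 such genes tested, 11 fell and 4 rose, beside 592 and 152 of all genes tested. The summed level of the list was 2289 to 3538 CPM in WT and 3945 to 8136 CPM in AhR-KO libraries, and Ccl17, described with the chemokines, was the most abundant of those that rose. Cd207, the langerin lectin of Birbeck granules, was at 17.7 to 53.2 CPM (median 34.1) in WT and 0 to 0.116 CPM (median 0.00757) in AhR-KO BMDMs (log2 fold change of -9.67 ± 1.08 and -10.27 without AhR-KO library 27, adjusted p = 1.07e-05). Epcam, an adhesion molecule of Langerhans cells and epithelia, was at 35.5 to 101 CPM (median 80.7) and 0.781 to 3.38 CPM (median 1.03), a 49.3-fold fall (log2 fold change of -5.62 ± 0.591, adjusted p = 8.32e-07). Both were separated without overlap, and every AhR-KO library was close to the detection floor for Cd207. Itgae, the αE integrin CD103 that binds E-cadherin, was at 3.99 to 70.7 CPM (median 63.4) in WT and 0 to 0.853 CPM (median 0.272) in AhR-KO BMDMs (log2 fold change of -7.24 ± 0.866 and -7.85 without AhR-KO library 27, adjusted p = 5.26e-06). Its WT libraries were themselves far apart, and the lowest of them was still above the highest AhR-KO library. Ccr7, which guides dendritic cells to lymph nodes, had a log2 fold change of -4.65 ± 0.709 and -5.53 without AhR-KO library 27, Flt3, the receptor for a dendritic cell growth factor, of -6.32 ± 0.936 and Fscn1, an actin bundler of mature dendritic cells, of -4.57 ± 0.95. Apol7c, an apolipoprotein L gene outside this list, was at 1.82 to 46.3 CPM (median 24.9) in WT and 0 to 0.133 CPM (median 0) in AhR-KO BMDMs and had a log2 fold change of -9.51 ± 1.02 with every AhR-KO read in library 27. The genes that rose included Batf3, a factor of cross-presenting dendritic cells (2.35-fold, log2 fold change of 1.23 ± 0.225, adjusted p = 0.000777), and Clec9a, their receptor for dead cells (2.54-fold, log2 fold change of 1.34 ± 0.296, adjusted p = 0.00461), so the list did not move in a single direction. Of 6 Langerhans cell markers 3 fell and none rose, and their sum was 978 to 1348 CPM in WT and 581 to 881 CPM in AhR-KO libraries. Of 9 conventional dendritic cell markers 4 fell and 2 rose, and their sum was 87.5 to 215 CPM in WT, the lowest in library 33, and 79.6 to 98.2 CPM in AhR-KO libraries. In bulk RNA fewer cells of a type and less RNA per cell cannot be told apart.

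Genes of MHC class II presentation, which shows peptides to CD4 T cells, fell more often than they rose, 7 against 1 of 19 tested. H2-Ab1, a class II β chain, was at 1694 to 5299 CPM (median 3457) in WT and 827 to 2204 CPM (median 1090) in AhR-KO BMDMs, 2.76-fold lower (log2 fold change of -1.46 ± 0.3, adjusted p = 0.00242). H2-Eb1 was at 753 to 1995 CPM (median 1556) and 201 to 878 CPM (median 329), 3.51-fold lower (log2 fold change of -1.81 ± 0.371, adjusted p = 0.00242). For both genes the lowest WT library was below the highest AhR-KO library. Both DO chains and 1 of the DM chains, H2-DMb2, which control peptide loading, fell too. H2-Ob was at 14.2 to 85.7 CPM (median 41.6) and 0.781 to 5.65 CPM (median 2.14), 17.7-fold lower (adjusted p = 6.09e-06), with no overlap. H2-DMb2 fell 6-fold (adjusted p = 5.21e-06) and H2-Oa 4.5-fold (adjusted p = 6.49e-07). Lgmn, a lysosomal protease that trims antigens, was the member that rose (2.11-fold, adjusted p = 6.86e-05), a call that ended under scaling to the total library size. By edgeR's quasi-likelihood test none of 23 genes of MHC class I presentation was a DEG, beside 4.48% of all genes tested, with 3 at an unadjusted p of at most 0.05 and none by DESeq2 or limma-voom. Tap2, a peptide transporter for class I, was at 49.9 to 95.2 CPM (median 84.5) in WT and 34.6 to 73.8 CPM (median 55.9) in AhR-KO BMDMs (adjusted p = 0.0686).

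Of 26 ligands that costimulate or restrain T cells, 7 fell and 2 rose, 34.6% called beside 4.48% of all genes tested. The balance of falls and rises was near that of all DEGs. Cd86, the ligand of CD28 on T cells, was at 29.2 to 78.5 CPM (median 58.8) in WT and 5.38 to 13.2 CPM (median 6.94) in AhR-KO BMDMs, 7.21-fold lower (log2 fold change of -2.85 ± 0.34, adjusted p = 5.21e-06). Cd40, through which T cells activate antigen-presenting cells, was at 3.3 to 10.8 CPM (median 7.67) and 0.378 to 1.62 CPM (median 1.22), 6.72-fold lower (log2 fold change of -2.75 ± 0.378, adjusted p = 2.86e-05). Neither gene overlapped between genotypes. Slamf1, a self-ligand of lymphocytes and macrophages, was at 0.5 to 1.37 CPM (median 0.928) in WT BMDMs and had no read in AhR-KO libraries, at least 118-fold lower (adjusted p = 2.3e-05). Tnfsf15, a ligand of the TNF family, was a member that rose, at 0 to 0.826 CPM (median 0.566) in WT and 0.725 to 4.82 CPM (median 3.52) in AhR-KO BMDMs (adjusted p = 0.0107), with overlap and with no call by limma-voom. The Langerhans cell marker sum above was lower in every AhR-KO library, while the summed list of Langerhans and dendritic cell genes was higher. The conventional dendritic cell marker sums of the genotypes overlapped through WT library 33. In that library Cd86 was at 29.2 CPM and H2-Ob at 37.2 CPM, above every AhR-KO library. The part of such cells in the class II and ligand results was not tested.

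**Figure D2:**
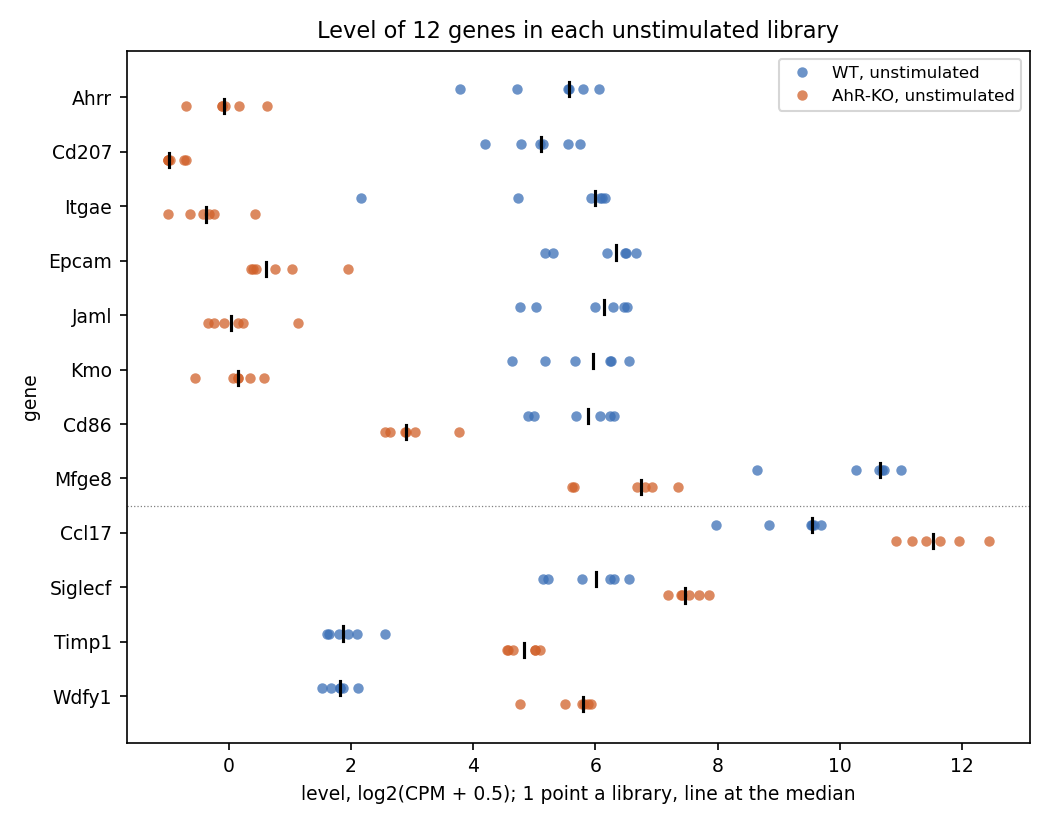
Level of 12 genes in each of the 12 unstimulated libraries, on a log2(CPM + 0.5) axis, with 6 points a genotype and a line at the median. The 8 genes of the upper part fell and the 4 of the lower part rose in AhR-KO BMDMs; the points of the 2 genotypes do not overlap for any of them.

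Genes that mark alveolar macrophages rose more often than they fell. Of 32 tested, 5 rose and none fell (2 fell without AhR-KO library 19), and the median log2 fold change was 0.69 against -0.0057 over all genes tested. The share called was 15.6%, beside 4.48% of all genes tested. Siglecf, a sialic acid receptor that identifies alveolar macrophages, was at 35 to 92.7 CPM (median 64.6) in WT and 145 to 233 CPM (median 177) in AhR-KO BMDMs, 2.97-fold higher (log2 fold change of 1.57 ± 0.328, adjusted p = 0.00282). Ear2, a ribonuclease of the eosinophil-associated family, was at 490.4 to 959.8 CPM (median 675) and 1354 to 3094 CPM (median 1683), 2.8-fold higher (log2 fold change of 1.48 ± 0.266, adjusted p = 0.000644). The 2 genotypes were apart for both. Cav1, the scaffold protein of caveolae and no member of this list, was at 81.3 to 222 CPM (median 109) in WT and 475 to 703 CPM (median 609) in AhR-KO BMDMs, 4.82-fold higher (log2 fold change of 2.27 ± 0.211, adjusted p = 1.55e-07). F7, the coagulation factor VII, was at 133 to 202 CPM (median 168) and 317 to 433 CPM (median 386), 2.21-fold higher (log2 fold change of 1.14 ± 0.163, adjusted p = 4.29e-05). Every AhR-KO library was above the highest WT library for both. Ear genes are near-identical copies, among which short reads cannot be divided with certainty, and Ear6 fell (-1.17) while Ear1 rose (1.48). Rnase2a, a further ribonuclease of that kind, rose 10.3-fold (adjusted p = 0.000171).

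Scavenger receptor and lysosomal genes held calls in both directions. Of 24 scavenger and efferocytosis genes 12.5% were called, and of 49 lysosomal genes 6.12%, beside 4.48% of all genes tested. Cd36, a scavenger receptor for oxidised lipids and fatty acids, was at 22.9 to 91.6 CPM (median 60.2) in WT and 202 to 293 CPM (median 236) in AhR-KO BMDMs, 4.06-fold higher (log2 fold change of 2.02 ± 0.286, adjusted p = 4.04e-05). Pros1, the protein S that bridges dying cells to TAM receptors, was at 36.5 to 46 CPM (median 42.1) and 98.3 to 136 CPM (median 120.3), 2.86-fold higher (log2 fold change of 1.52 ± 0.178, adjusted p = 3.96e-06). Mfge8, a bridge between dying cells and integrins, went the opposite way, at 399 to 2048 CPM (median 1620) in WT and 48.7 to 163 CPM (median 107) in AhR-KO BMDMs, 14.4-fold lower (log2 fold change of -3.85 ± 0.426, adjusted p = 1.7e-06). All 3 were without overlap, so both bridging proteins differed but in opposite directions. Of 49 lysosomal genes tested, 2 rose and 1 fell. Over the 49 the fitted log2 fold change was above 0 for 43 and below 0 for 6, with a median of 0.38. Summed over the list, lysosomal genes took 27437 to 29801 CPM in WT and 37778 to 45482 CPM in AhR-KO libraries. Ctsk, a collagen-degrading cathepsin, was at 110.0 to 207 CPM (median 127) and 288 to 605 CPM (median 318), 2.52-fold higher (log2 fold change of 1.34 ± 0.201, adjusted p = 8.79e-05). Gpnmb, a lysosomal membrane glycoprotein, fell 3.11-fold (adjusted p = 0.000874). Mmp12, the macrophage elastase, was at 1370 to 4585 CPM (median 3854) in WT and 4921 to 9595 CPM (median 5682) in AhR-KO BMDMs (log2 fold change of 1.03 ± 0.289, adjusted p = 0.0324), a rise at the edge of the fold threshold. Its log2 fold change was 0.89 without AhR-KO library 19, 0.87 without WT library 25, 0.92 without WT library 26 and 0.92 without AhR-KO library 35, and it was not called then.

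Matrix and growth factor genes changed in both directions. Timp1, an inhibitor of metalloproteinases, was at 2.53 to 5.41 CPM (median 3.17) in WT and 22.9 to 33.4 CPM (median 28.2) in AhR-KO BMDMs, 8.12-fold higher (log2 fold change of 3.02 ± 0.267, adjusted p = 9.15e-08). Ccn4, a secreted matricellular protein, was at 0 to 0.3 CPM (median 0.0557) and 1.18 to 6.75 CPM (median 4.45) (log2 fold change of 5.14 ± 0.936, adjusted p = 0.000751). Neither overlapped between genotypes. Of 43 matrix genes tested 3 rose and 2 fell (11.6%), and of 37 metalloproteinases and inhibitors 2 rose and 3 fell (13.5%). Among 41 growth factors and their receptors 3 rose and 4 fell (17.1%). Over all genes tested 4.48% were called. Igf1, a growth factor made by macrophages, was at 11.8 to 28.6 CPM (median 22.8) and 43.6 to 63.3 CPM (median 55), 2.58-fold higher (adjusted p = 0.00409), and Pdgfc, a platelet-derived growth factor, rose 2.42-fold (adjusted p = 0.000146). Fst, which binds activins, rose 2.73-fold (adjusted p = 8.29e-06), and Acvrl1, a type I receptor of the TGF-β family, 2.74-fold (adjusted p = 1.56e-05). Tgfb3 fell, at 0.34 to 4.2 CPM (median 3.14) in WT and 0 to 0.0997 CPM (median 0) in AhR-KO BMDMs (log2 fold change of -6.47 ± 0.912 and -7.55 without AhR-KO library 27, adjusted p = 3.91e-05). Of 43 genes of the TGF-β and BMP pathway tested, 3 rose and 2 fell (11.6%). Igfbp4, which binds insulin-like growth factors, was at 28.8 to 50 CPM (median 33.1) in WT and 2.52 to 4.04 CPM (median 3.4) in AhR-KO BMDMs, 11.4-fold lower (log2 fold change of -3.51 ± 0.503, adjusted p = 4.67e-05). Igf1 and its binding protein therefore differed in opposite directions.

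The increase with the smallest p was that of Wdfy1, an endosomal adaptor of TLR3 and TLR4 signalling. It was at 2.38 to 3.84 CPM (median 3.03) in WT and 26.8 to 60.3 CPM (median 55.1) in AhR-KO BMDMs, 16.6-fold higher (log2 fold change of 4.05 ± 0.217, adjusted p = 2.38e-11). H2-M2, a class Ib histocompatibility gene, was at 1.54 to 10.3 CPM (median 8.04) and 36.8 to 109 CPM (median 89.3), 11.5-fold higher (log2 fold change of 3.52 ± 0.504, adjusted p = 4.67e-05). Cbln1, a secreted protein of the C1q family, was at 0.976 to 3.19 CPM (median 2.55) and 9.43 to 29.3 CPM (median 18.6), 8.05-fold higher (log2 fold change of 3.01 ± 0.289, adjusted p = 2.57e-07). No library of either genotype crossed into the range of the other for these 3 genes. Of 44 Toll-like and other innate receptor genes tested, Wdfy1 was the gene that rose and Tlr5, the flagellin receptor, the gene that fell (-4.12 ± 0.803 and -5.38 without AhR-KO library 28). The share called was 4.55%, near the 4.48% of all genes tested.

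Chemokine genes rose more often than they fell, 5 against 2 of 26 tested, with 26.9% called. Ccl17, a ligand of CCR4 on T helper and regulatory T cells, was at 250.3 to 822 CPM (median 742) in WT and 1940 to 5533 CPM (median 2940) in AhR-KO BMDMs, 5.2-fold higher (log2 fold change of 2.38 ± 0.353, adjusted p = 7.15e-05). The lowest AhR-KO library was above the highest WT library. Cxcl3, a neutrophil attractant, was at 8.37 to 17 CPM (median 15.2) and 32.4 to 93.9 CPM (median 60.3), 4.43-fold higher (log2 fold change of 2.15 ± 0.261, adjusted p = 6.35e-06). This too was without overlap. Pf4 and Ppbp, 2 chemokines best known from platelets, rose 2.63-fold (adjusted p = 0.00145) and 7.03-fold (adjusted p = 0.00063). Ccl1, a ligand of CCR8, had no read in AhR-KO libraries and 0.171 to 0.34 CPM (median 0.185) in WT libraries (adjusted p = 8.82e-05). Of 22 receptors for chemoattractants 6 fell and 1 rose, 31.8% called beside 4.48% of all genes tested. Most DEGs over all genes tested fell too (592 of 744). Cmklr1, the chemerin receptor, was the receptor that rose, at 6.38 to 21.1 CPM (median 13.2) in WT and 12.2 to 78.8 CPM (median 55.8) in AhR-KO BMDMs (log2 fold change of 1.89 ± 0.39, adjusted p = 0.00256), with overlap between the genotypes. C5ar1, the receptor for complement C5a, fell 2.67-fold (adjusted p = 0.0159).

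Of 37 cytokine genes tested, 5 fell and 1 rose, 16.2% called beside 4.48% of all genes tested. Ltb, a lymphotoxin subunit, was at 13.4 to 50.1 CPM (median 39.6) in WT and 0.59 to 2.04 CPM (median 1.42) in AhR-KO BMDMs, 26.2-fold lower (log2 fold change of -4.71 ± 0.46, adjusted p = 3.42e-07). Il33, an alarmin, was at 0.121 to 1.77 CPM (median 0.952) and 3.21 to 9.39 CPM (median 5.37), 5.96-fold higher (log2 fold change of 2.58 ± 0.425, adjusted p = 0.000258). Neither gene overlapped between genotypes. Il22 and Il13, cytokines of innate and helper lymphocytes, had reads in WT libraries alone: Il22 was at 0.0122 to 0.378 CPM (median 0.074) and Il13 at 0 to 0.836 CPM (median 0.267), levels at which a group summed to 49 and 133 reads. Il22 had its highest level in WT library 17 and was not called by limma-voom. Among 62 cytokine receptor genes tested 8 fell and 2 rose (16.1%). Il2ra, the α chain of the IL-2 receptor, was at 1.59 to 16.4 CPM (median 12.7) and 0.0937 to 0.72 CPM (median 0.303), 32.4-fold lower (log2 fold change of -5.02 ± 0.687, adjusted p = 2.72e-05), and Il18r1 had a log2 fold change of -4.96 ± 0.714. Il27ra rose 3.23-fold (adjusted p = 5.11e-05).

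Most calls among adhesion genes were falls, as they were over all genes tested, of which 592 fell and 152 rose. Of 51 cadherin, junction and adhesion genes tested, 13 fell and 1 rose, of 21 integrin genes 4 fell and 1 rose, and of 22 tetraspanin genes 4 fell and none rose. These calls were 27.45%, 23.8% and 18.2% of those lists, beside 4.48% of all genes tested. Jaml, a junctional adhesion protein of leukocytes, was at 26.6 to 91.1 CPM (median 70.4) in WT and 0.287 to 1.68 CPM (median 0.528) in AhR-KO BMDMs, 92.1-fold lower (log2 fold change of -6.53 ± 0.546, adjusted p = 3.57e-08). Cdh17, a cadherin best known from the intestine, was at 6.04 to 23.6 CPM (median 17.3) and 0 to 0.144 CPM (median 0.0556) (log2 fold change of -8.01 ± 0.741, adjusted p = 1.53e-07). Itgb7, the β chain that pairs with CD103, was at 6.06 to 38.9 CPM (median 31.1) and 0.348 to 1.36 CPM (median 0.721), 36.2-fold lower (log2 fold change of -5.18 ± 0.556, adjusted p = 1.08e-06). In each case the genotypes did not overlap, and both chains of the αEβ7 integrin were lower. Tspan8, a tetraspanin, was at 2.23 to 6.66 CPM (median 5.29) in WT BMDMs and had no read in AhR-KO BMDMs, at least 641-fold lower (adjusted p = 2.57e-07). Tspan2 fell 31-fold (log2 fold change of -4.95 ± 0.319, adjusted p = 6.26e-10). Cd7, an immunoglobulin superfamily protein of lymphocytes, was at 2.04 to 7.88 CPM (median 3.46) in WT BMDMs and had no read in AhR-KO BMDMs, at least 506-fold lower (adjusted p = 3.19e-06). Nectin2, a junction protein, was the adhesion gene that rose (2.12-fold, adjusted p = 0.00242), and its log2 fold change was 0.99 without AhR-KO library 27 and 0.97 without AhR-KO library 28, short of the fold threshold. Of 53 actin and motility genes 5 fell and 1 rose, and of 34 semaphorin, plexin and guidance genes 4 fell and none rose, among them Sema4f (-4.47 ± 0.846) and Sema4c (-1.51 ± 0.314).

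**Figure D3:**
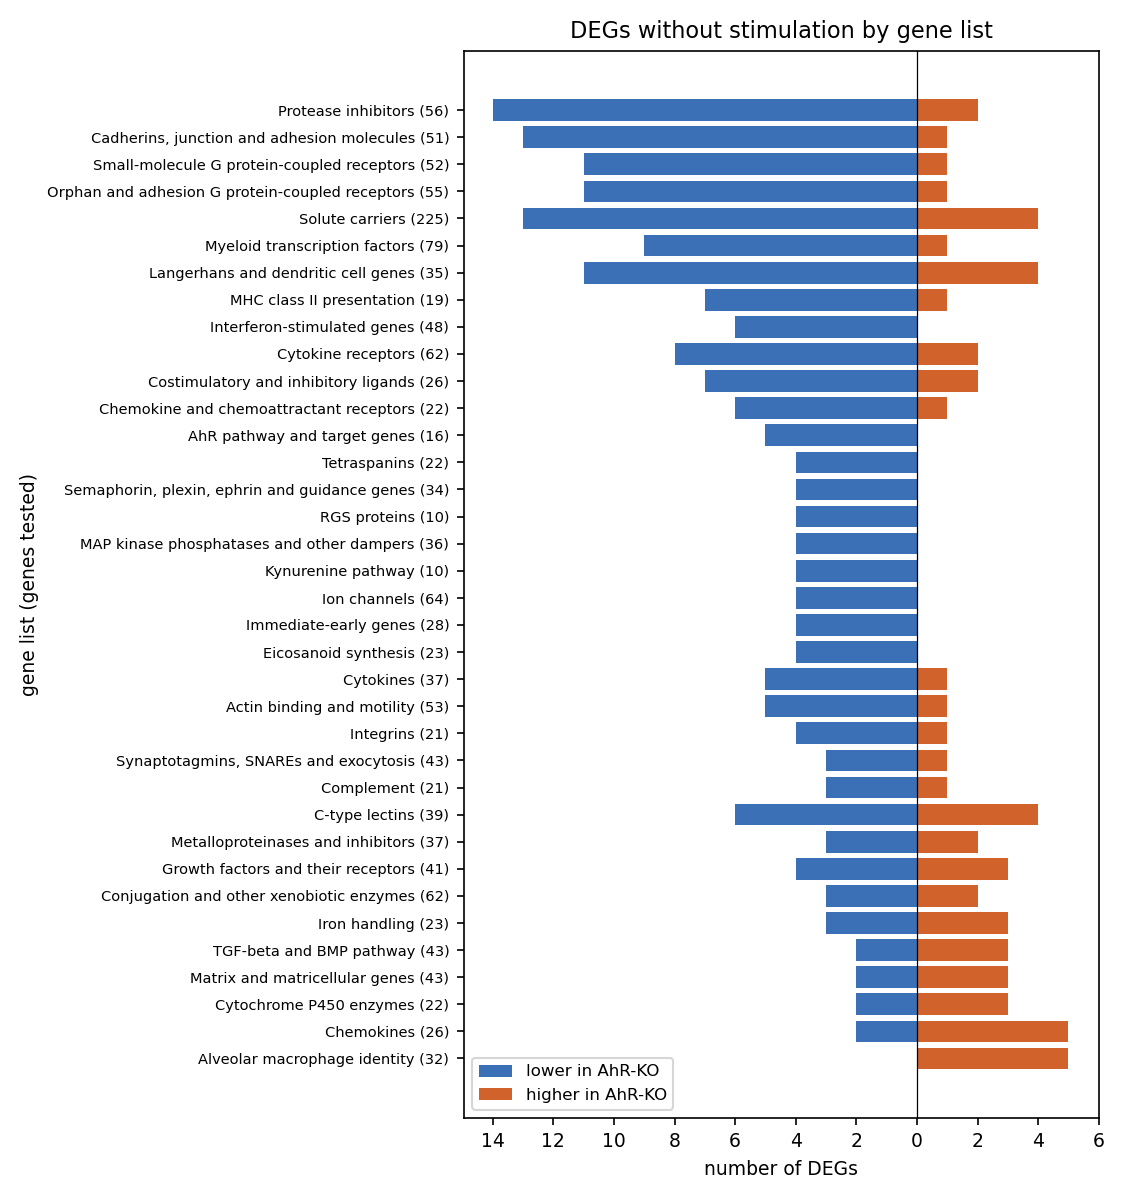
Number of DEGs lower (left of 0) and higher (right of 0) in AhR-KO BMDMs for each of the functional gene lists with at least 4 DEGs, with the number of genes tested in brackets. Lists of adhesion, receptor and class II genes lie to the left, and alveolar macrophage and chemokine genes lie to the right.

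Granule and antimicrobial genes of neutrophils fell. Of 12 neutrophil markers tested, 10 fell and none rose, 83.3% called beside 4.48% of all genes tested. S100a8, a calcium-binding alarmin, was at 791 to 7365 CPM (median 1355) in WT and 134 to 526 CPM (median 209.8) in AhR-KO BMDMs, 8.14-fold lower (log2 fold change of -3.02 ± 0.733 and -2.16 without WT library 33, adjusted p = 0.0106). Ngp, a granule protein, was at 177 to 749 CPM (median 253) and 24.8 to 61 CPM (median 33.4), 10.2-fold lower (log2 fold change of -3.34 ± 0.56, adjusted p = 0.000302). Mmp8, the neutrophil collagenase, was at 209 to 501 CPM (median 252) and 8.41 to 20.7 CPM (median 14.9), 21.8-fold lower (log2 fold change of -4.44 ± 0.405, adjusted p = 1.22e-07). Every WT library was above every AhR-KO library for these 3 genes. The summed level of the 12 markers was 2154 to 12934 CPM in WT libraries, the highest in library 33, and 278 to 823 CPM in AhR-KO libraries. Of 56 protease inhibitor genes tested, 14 fell and 2 rose (28.6%). The decreases included the stefins Stfa2 (-3.98 ± 0.612) and Stfa3 (-3.86 ± 0.712 and -3.08 without WT library 33). Both are near-identical copies whose reads cannot be assigned with certainty. Cst3, the secreted cystatin C, was at 902 to 2129 CPM (median 1734) and 371 to 635 CPM (median 464), 3.47-fold lower (log2 fold change of -1.80 ± 0.312, adjusted p = 0.00046).

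Genes of mast cells, basophils and progenitors were lower too. Of 11 mast cell and basophil markers tested 8 fell (5 without WT library 17), and of 6 progenitor markers 4 fell, with none that rose. These were 72.7% and 66.7%, beside 4.48% of all genes tested. Cd34, a sialomucin of progenitors, was at 37.6 to 86.7 CPM (median 53.9) in WT and 1.47 to 4.19 CPM (median 2.54) in AhR-KO BMDMs, 20.4-fold lower (log2 fold change of -4.35 ± 0.327, adjusted p = 7.93e-09). Gata2, a factor of progenitors and mast cells, was at 1.36 to 5.67 CPM (median 3.12) and 0 to 0.281 CPM (median 0.0648) (log2 fold change of -5.04 ± 0.79 and -5.66 without AhR-KO library 35, adjusted p = 0.000142). Hdc, which makes histamine, was at 1.36 to 7.45 CPM (median 3.8) and 0.215 to 0.697 CPM (median 0.429), 8.76-fold lower (log2 fold change of -3.13 ± 0.321, adjusted p = 6.49e-07). All WT libraries exceeded all AhR-KO libraries. The mast cell and basophil markers summed to 11.8 to 30.2 CPM in WT and to 2.33 to 5.34 CPM in AhR-KO libraries, and the progenitor markers to 43.5 to 93.4 CPM and 4.37 to 6.34 CPM. Cd34 made up most of the progenitor sum in WT libraries. The progenitor markers Meis1 and Gfi1b, not DEGs, had medians of 0.454 and 0.581 CPM in WT and 0.518 and 1.2 CPM in AhR-KO libraries. Of 6 immunoglobulin genes tested 3 fell, and both B and plasma cell markers that could be tested were among them. Ighm, the μ heavy chain, was at 8.81 to 40.1 CPM (median 35) and 0.359 to 0.964 CPM (median 0.613) (log2 fold change of -5.45 ± 0.884, adjusted p = 0.000208), and Igha, the α heavy chain, at 1.16 to 16.3 CPM (median 9.9) and 0 to 0.0937 CPM (median 0) (log2 fold change of -9.03 ± 1 with every AhR-KO read in library 35, adjusted p = 9.63e-06). Pax5, the defining factor of B cells, had no read in WT libraries. Of 4 T, NK and innate lymphoid markers tested 1, Cd7, fell, and the 9 others had too few reads to be tested. Among those, Cd3g had 68 reads over the WT and none over the AhR-KO group, Cd3d had 42 and 2, and Cd3e and Trac had none and 6 each. The part of such cells in the other results was not tested.

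**Figure D4:**
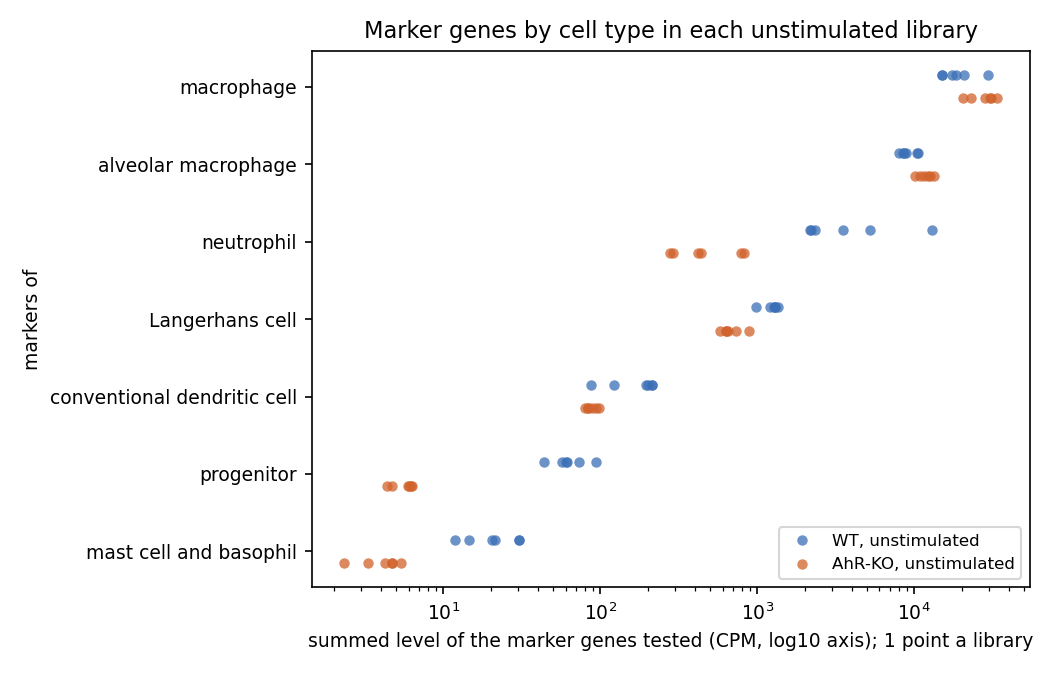
Summed level of the marker genes of 7 cell types in each of the 12 unstimulated libraries, on a log10 CPM axis, with WT and AhR-KO points side by side. Neutrophil, mast cell and basophil, and progenitor sums of WT libraries lie above those of AhR-KO libraries, and macrophage sums of the genotypes overlap.

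Ly6a, Ly6c2 and Ifitm1, which encode small surface proteins, fell. Ly6a, also known as Sca-1, was at 47.7 to 131 CPM (median 70) in WT and 0 to 1.4 CPM (median 0.356) in AhR-KO BMDMs, 169.8-fold lower (log2 fold change of -7.41 ± 0.673 and -8.15 without AhR-KO library 27, adjusted p = 1.2e-07). Ifitm1 was at 35.8 to 145 CPM (median 71.5) and 0.0151 to 0.929 CPM (median 0.255), 283-fold lower (log2 fold change of -8.15 ± 0.669 and -8.76 without AhR-KO library 19, adjusted p = 2.96e-08). The genotypes did not overlap. Ly6c2, a protein of inflammatory monocytes, was at 129 to 454 CPM (median 149) and 10.8 to 53.3 CPM (median 19.7), 9.03-fold lower (adjusted p = 9.77e-06). Ly6 genes share sequence, so their separate values are uncertain. Among 48 interferon-stimulated genes tested, 6 fell and none rose, 12.5% called beside 4.48% of all genes tested. The median log2 fold change was -0.63. Rsad2 and Cmpk2, both of them within 10 Mb of Ahr, were 2 of the 6. The list summed to 1393 to 1816 CPM in WT and 792 to 1964 CPM in AhR-KO libraries, the highest of all in AhR-KO library 27, and 16 of its genes fell without that library. Usp18, a protease that removes ISG15, was at 16.5 to 37.4 CPM (median 27.2) and 3.47 to 16.6 CPM (median 4.03), 4.49-fold lower (log2 fold change of -2.17 ± 0.378 and -2.78 without AhR-KO library 27, adjusted p = 0.000486), with overlap between the highest AhR-KO library and the lowest WT library.

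Among 79 myeloid transcription factor genes tested, 9 fell and 1, Batf3, rose, 12.7% called beside 4.48% of all genes tested. Hic1, Mycl and Gata2 were 3 of those that fell, and another was Stat4, which transmits IL-12 signals (-5.26 ± 1.1 with every AhR-KO read in library 27). Of 10 RGS genes, whose products shut off G proteins, 4 fell and none rose (40%). Rgs18 was at 13.2 to 55.2 CPM (median 36.7) in WT and 0.347 to 0.937 CPM (median 0.552) in AhR-KO BMDMs, 57.9-fold lower (log2 fold change of -5.86 ± 0.598, adjusted p = 6.49e-07), and Rgs12 was at 6.15 to 47.6 CPM (median 39.1) and 1.36 to 4.39 CPM (median 2.94), 11.8-fold lower (log2 fold change of -3.56 ± 0.5, adjusted p = 3.66e-05). Neither overlapped between genotypes. Dusp6, a phosphatase of ERK, was at 67.5 to 85.2 CPM (median 74.7) and 22.5 to 32.4 CPM (median 26.6), 2.81-fold lower (log2 fold change of -1.49 ± 0.2, adjusted p = 2.2e-05), and Socs1, an inhibitor of cytokine receptors, was at 18.5 to 29.9 CPM (median 27.6) and 5.19 to 13 CPM (median 8.42), 3.1-fold lower (log2 fold change of -1.63 ± 0.188, adjusted p = 3.19e-06). Neither of these overlapped between genotypes. Of 28 immediate-early genes 4 fell and none rose (14.3%), among them Gadd45b (3.4-fold, adjusted p = 0.00078) and Ier3 (2.89-fold, adjusted p = 0.00271).

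G protein-coupled receptors gave mostly decreases in both families examined, as did all genes tested (3.57% lower, 0.916% higher). Of 52 receptors for small molecules 11 fell and 1 rose, and of 55 orphan and adhesion receptors 11 fell and 1 rose. Lpar3, a receptor for lysophosphatidic acid, was at 13.9 to 51.4 CPM (median 38.7) in WT and 0 to 0.757 CPM (median 0.288) in AhR-KO BMDMs, 99.4-fold lower (log2 fold change of -6.63 ± 0.679, adjusted p = 6.49e-07). Ptger3, a receptor for prostaglandin E2, was at 6.02 to 11.7 CPM (median 7.72) and 0 to 0.496 CPM (median 0.214), 36.2-fold lower (log2 fold change of -5.18 ± 0.739, adjusted p = 4.56e-05). Both had AhR-KO libraries with no or few reads and no overlap. Gpr82, an orphan receptor, was at 1.22 to 5.34 CPM (median 3.04) in WT BMDMs and had a single read, in library 20, over the AhR-KO group (adjusted p = 7.79e-07). Gpr35, a receptor to which kynurenic acid has been assigned as a ligand, was the orphan receptor that rose, at 3.22 to 8.59 CPM (median 4.49) in WT and 7.82 to 23.2 CPM (median 16.1) in AhR-KO BMDMs, 3.14-fold higher (log2 fold change of 1.65 ± 0.368, adjusted p = 0.00519).

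Tryptophan metabolism, whose products include AhR ligands, was represented by 10 genes, of which 4 fell and none rose. The share called was 40%, beside 4.48% of all genes tested. Kmo, which hydroxylates kynurenine, was at 24.3 to 92.8 CPM (median 62.8) in WT and 0.181 to 0.986 CPM (median 0.609) in AhR-KO BMDMs, 94.6-fold lower (log2 fold change of -6.56 ± 0.51, adjusted p = 1.18e-08). Il4i1, an amino acid oxidase that forms indole-pyruvate from tryptophan, was at 6.79 to 24 CPM (median 18.4) and 0.0227 to 1.76 CPM (median 0.393), 26.6-fold lower (log2 fold change of -4.73 ± 0.72 and -5.46 without AhR-KO library 27, adjusted p = 9.89e-05). Both were free of overlap. Ido1, the enzyme that opens the pathway, was near the floor in both genotypes, at 0.0567 to 0.182 CPM (median 0.0901) in WT and with no read in AhR-KO BMDMs.

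Iron genes changed in both directions. Of 23 tested 3 rose (1 without AhR-KO library 19) and 3 fell, 26.1% beside 4.48% of all genes tested. Tfrc, the transferrin receptor, was at 102 to 158 CPM (median 119.8) in WT and 20.3 to 38.9 CPM (median 27.3) in AhR-KO BMDMs, 4.23-fold lower (log2 fold change of -2.08 ± 0.207, adjusted p = 4.38e-07). Lcn2, which binds bacterial siderophores, was at 37.9 to 166 CPM (median 59.1) and 2.27 to 12 CPM (median 8.06), 9.44-fold lower (log2 fold change of -3.24 ± 0.58, adjusted p = 0.00063). Neither gene overlapped between genotypes. Dgat2, the last enzyme of triglyceride synthesis, was at 31.6 to 101 CPM (median 41.6) and 6.82 to 12.9 CPM (median 10.8), 4.99-fold lower (log2 fold change of -2.32 ± 0.277, adjusted p = 5.25e-06). Of 39 genes of fatty acid storage and oxidation 2 fell and 1, Cd36, rose. Of 225 solute carriers 13 fell and 4 rose, a share of 7.56% beside 4.48% of all genes tested. Slc27a3, an acyl-CoA synthetase, rose 3.33-fold (adjusted p = 0.00696) and Slc24a3, a calcium exchanger, had a log2 fold change of -3.99 ± 0.563. Among 22 cytochromes P450, 3 rose and 2 fell. Cyp11a1, which opens steroid synthesis, was at 2.21 to 8.08 CPM (median 4.26) and 0.318 to 1.03 CPM (median 0.501), 7.53-fold lower (log2 fold change of -2.91 ± 0.403, adjusted p = 3.16e-05), and Cyp4a12a, a fatty acid hydroxylase whose copy Cyp4a12b is nearly identical, was at 1.23 to 2 CPM (median 1.46) and 5.12 to 13.8 CPM (median 7.36), 5.3-fold higher (log2 fold change of 2.41 ± 0.315, adjusted p = 1.59e-05). Of 62 conjugating and other xenobiotic enzymes 3 fell (1 without WT library 17 or AhR-KO library 28) and 2 rose (4 without AhR-KO library 19), among them the sulphotransferase Sult1a1, at 1.04 to 4.99 CPM (median 2.81) in WT and 0 to 0.0907 CPM (median 0.0248) in AhR-KO BMDMs (log2 fold change of -6.07 ± 0.81, adjusted p = 2.06e-05), and the epoxide hydrolase Ephx1, 2.67-fold higher (adjusted p = 2.53e-05).

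The eicosanoid genes are given in brief. Of 23 tested, 4 fell and none rose, 17.4% called beside 4.48% of all genes tested. Ptgs1 was at 128 to 292 CPM (median 246) in WT and 27.5 to 49.9 CPM (median 37.4) in AhR-KO BMDMs (log2 fold change of -2.66 ± 0.384, adjusted p = 5.11e-05), Alox5 was at 76.7 to 221 CPM (median 192) and 39.8 to 76.2 CPM (median 69) (log2 fold change of -1.51 ± 0.383, adjusted p = 0.0151), and Hpgds, a prostaglandin D synthase, was at 17.8 to 48 CPM (median 33) and 0.598 to 1.54 CPM (median 0.765) (log2 fold change of -5.20 ± 0.528, adjusted p = 5.92e-07).

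In several housekeeping groups the share of DEGs was at or below the 4.48% of all genes tested, a difference that was not tested. By edgeR's quasi-likelihood test there was none among 22 genes of cholesterol synthesis, 19 of the p53 pathway, 13 encoded in mitochondria and 79 nuclear subunits of the respiratory chain. At an unadjusted p of at most 0.05 the counts in these lists were 7, 3, 2 and 3. The fitted log2 fold change was above 0 for 21 of the 22 cholesterol genes (median 0.23) and for all 13 mitochondrial genes (median 0.55), whose sums were 3803 to 8900 CPM in WT and 4932 to 14099 CPM in AhR-KO libraries and overlapped. DESeq2 and limma-voom each called 1 gene of the respiratory chain list, Cox4i2, and none of the others. In cell cycle and replication, the single DEG of 50 genes was Ccnd1, the cyclin of the G1 phase, at 48 to 93.7 CPM (median 82) in WT and 9.43 to 25.9 CPM (median 16.2) in AhR-KO BMDMs, 4.6-fold lower (log2 fold change of -2.20 ± 0.358, adjusted p = 0.000216). Of 34 genes of glycolysis and HIF-1, the glucose carrier Slc2a3 alone was a DEG (3.79-fold lower, adjusted p = 0.00611), and of 29 NRF2 and redox genes, Gpx3 alone (3.48-fold lower, adjusted p = 0.00909). Across all 57 functional lists, 40 had more members that fell than that rose and 9 had more that rose, beside 592 and 152 of all genes tested.

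Genes next to Ahr were examined apart, since the AhR-KO strain can carry 129 alleles there. On chromosome 12, 8 of 63 genes tested within 10 Mb of Ahr were DEGs, Ahr included, 12.7% beside 4.48% of all genes tested. Acp1, a phosphatase of low molecular mass, was at 30.1 to 40.7 CPM (median 35.4) in WT and 4.75 to 6.68 CPM (median 6.14) in AhR-KO BMDMs, 5.78-fold lower (log2 fold change of -2.53 ± 0.117, adjusted p = 1.75e-12). Its libraries were closely grouped within each genotype. Scin, an actin-severing protein, was at 5.53 to 27.7 CPM (median 12.9) and 0.219 to 1.5 CPM (median 0.518), 22.4-fold lower (log2 fold change of -4.48 ± 0.481, adjusted p = 1.08e-06). Rsad2 and Cmpk2, neighbouring interferon-stimulated genes, had log2 fold changes of -1.58 ± 0.353 and -2.17 without AhR-KO library 27 for the first and -1.29 ± 0.29 for the second. The others beside Ahr were 9130015A21Rik, with 0.378 to 2.12 CPM (median 1.57) in WT libraries and 3 reads, all in library 27, in the AhR-KO group (adjusted p = 5.92e-07), Fam110c (-3.08 ± 0.757 and -5.74 without AhR-KO library 36) and Rnf144a (-1.61 ± 0.38). Fam110c and Rnf144a were not called in a fit of the 12 unstimulated libraries alone. For these genes an effect of strain alleles and an effect of the loss of AhR cannot be told apart. With the 63 genes left out, 736 DEGs remained. Strain alleles further than 10 Mb from Ahr or on other chromosomes were not examined.

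The LPS-treated libraries, which entered the unstimulated comparison through the shared estimate of spread and the choice of genes tested, gave a second reading of the same genes, with 8.36% of genes tested called DEGs between genotypes, 2.17% higher and 6.19% lower. Of the 152 genes that were higher without stimulation, 64 were also DEGs that were higher after LPS, and 4 were DEGs that were lower. Of the 592 that were lower, 351 were lower after LPS and 11 were higher. Direct tests of the difference were made as well. An interaction of genotype and LPS was called for 4.30% of genes tested and for 186 of the 744 DEGs, which were chosen by the unstimulated effect that also enters the interaction, so the 2 shares cannot be compared. Kmo had log2 fold changes of -6.56 without stimulation and -7.09 after LPS, Ahrr of -6.34 and -8.19, Timp1 of 3.02 and 3.48 and Wdfy1 of 4.05 and 4.66. For these 4 genes the interaction did not pass the test. For Cd40 the value was -2.75 without stimulation and 0.97 after LPS, with an interaction (adjusted p = 0.00011). Ly6a had values of -7.41 and -1.58 (adjusted p = 7.55e-05), Tfrc of -2.08 and 0.16 (adjusted p = 5.34e-05) and Ahr itself of -1.93 and 1.36 (adjusted p = 0.000375). In these genes the difference between genotypes was smaller or of the other sign in LPS-treated cells.

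**Figure D5:**
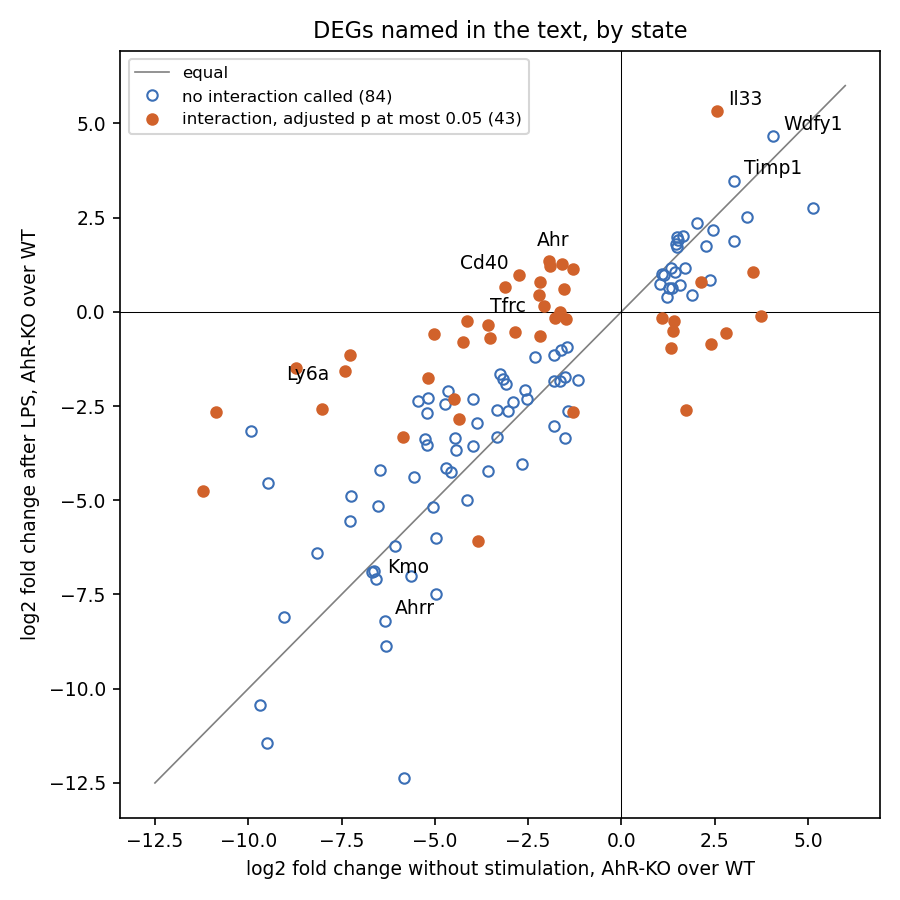
Log2 fold change of AhR-KO over WT without stimulation (x axis) against that after LPS (y axis) for the DEGs the text names, with a diagonal of equality. Filled points have an interaction at an adjusted p of at most 0.05; Cd40 and Tfrc lie above 0 on the LPS axis, Ly6a lies at -1.58 and Kmo, Timp1 and Wdfy1 lie closer to the diagonal than Ahrr, at -6.34 and -8.19.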

How the data were processed

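Polyadenylated RNA had been made into strand-specific paired-end libraries (NEBNext Ultra II Directional). The authors demultiplexed with bcl2fastq 2.20.0, aligned to mm10 with GSNAP and deposited raw counts per gene from featureCounts 2.0.1 (Ensembl annotation, reverse-stranded). A fragment that overlaps several genes on the same strand was not counted, which can lower such genes, and 127 of the DEGs overlap another gene that way. All columns of the deposited count table were used as given, without the 92 spike-in sequences. WT and AhR-KO libraries were grouped by their labels, 6 a group.

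Counts of 24 libraries were fitted in edgeR 4.0.16 (TMM, filterByExpr, robust quasi-likelihood F-test) with 4 groups, and AhR-KO minus WT without LPS was tested over 16593 genes with Benjamini-Hochberg adjustment. All 4 groups share 1 estimate of the spread, and the biological coefficient of variation was 49.1%. The SE is the log2 fold change divided by the root of F. Where a group had no read, folds are bounds from 3 counts over the group. Totals of 45106052 to 76992663 counts a library leave few limits for genes above 1 CPM, while genes with a handful of reads have wide counting error. DESeq2 1.42.0, limma 3.58.1, other scalings, filters and covariates and leaving out libraries were the alternatives. Leaving out the library of lowest length slope in each genotype was added after seeing the data. The run alternative groups consecutive library numbers, which the labels do not call batches.

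The comparison, the 71 gene lists and the tests were chosen with earlier results of these data known. The genes named in the report are drawn from those that met a rule: AhR pathway members; the 15 largest increases and 20 largest decreases without overlap and with at least 1 CPM; the 10 most abundant DEGs each way; up to 4 DEGs each way of each list, or 2 of smallest p in a list without DEGs; and DEGs within 10 Mb of Ahr. Gene families among the other observations were chosen after their values were seen.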

Additional observations from a re-analysis of the deposited data

Results flagged for a closer look

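For 37 of the 264 sets of 6 libraries examined, 14.0%, 1 library lay far from the other 5, its gap to the nearest making up more than 0.625 of the range of the 6 libraries (Dixon's ratio). Chance gives about 1 in 20 for normally distributed values, which CPM near 0 are not. AhR-KO library 27 was the highest for 9130015A21Rik (0.0332 CPM against 0 CPM in the other 5, ratio 1), Apol7c (0.133 CPM against 0 CPM in the other 5, ratio 1), Ccr7 (4.71 CPM against 0.272 to 1.6 CPM, ratio 0.700), Cd86 (13.2 CPM against 5.38 to 7.8 CPM, ratio 0.689) and Cmpk2 (25 CPM against 8.65 to 11.3 CPM, ratio 0.839). AhR-KO library 27 was also the highest for Epcam (3.38 CPM against 0.781 to 1.55 CPM, ratio 0.702), H2-Eb1 (878 CPM against 201 to 376 CPM, ratio 0.742), H2-Ob (5.65 CPM against 0.781 to 2.58 CPM, ratio 0.630), Jaml (1.68 CPM against 0.287 to 0.68 CPM, ratio 0.719) and Ly6a (1.4 CPM against 0 to 0.48 CPM, ratio 0.656). AhR-KO library 27 was also the highest for Rsad2 (14.1 CPM against 2.83 to 4.43 CPM, ratio 0.858), Slc27a3 (12.8 CPM against 6.58 to 8.45 CPM, ratio 0.699), Stat4 (0.0887 CPM against 0 CPM in the other 5, ratio 1) and Usp18 (16.6 CPM against 3.47 to 5.03 CPM, ratio 0.881). WT library 33 was the lowest for Alox5 (76.7 CPM against 184 to 221 CPM, ratio 0.739). WT library 33 was the highest for Dgat2 (101 CPM against 31.6 to 55.6 CPM, ratio 0.655), S100a8 (7365 CPM against 791 to 1875 CPM, ratio 0.835), Slc2a3 (22.5 CPM against 6.53 to 11.4 CPM, ratio 0.692) and Stfa3 (30.8 CPM against 3.79 to 9.32 CPM, ratio 0.795). AhR-KO library 36 was the highest for Batf3 (16.3 CPM against 10.5 to 12.1 CPM, ratio 0.713), Fam110c (0.167 CPM against 0 to 0.0151 CPM, ratio 0.909) and Unc5b (1.59 CPM against 0 to 0.443 CPM, ratio 0.721). WT library 18 was the highest for Ccl1 (0.34 CPM against 0.171 to 0.226 CPM, ratio 0.672), Ear1 (39.9 CPM against 18.5 to 25.1 CPM, ratio 0.689) and Ppbp (1.13 CPM against 0.159 to 0.493 CPM, ratio 0.658). AhR-KO library 19 was the highest for Ctsk (605 CPM against 288 to 355 CPM, ratio 0.790) and Ifitm1 (0.929 CPM against 0.0152 to 0.355 CPM, ratio 0.628). AhR-KO library 28 was the lowest for Acp1 (4.75 CPM against 6.06 to 6.68 CPM, ratio 0.679). AhR-KO library 28 was the highest for Tlr5 (0.0993 CPM against 0 to 0.0332 CPM, ratio 0.665). WT library 25 was the highest for C5ar1 (50.7 CPM against 25.1 to 33.8 CPM, ratio 0.660) and Lcn2 (166 CPM against 37.9 to 60.9 CPM, ratio 0.820). WT library 26 was the highest for Slc7a5 (89.1 CPM against 67.8 to 73.5 CPM, ratio 0.735) and Tlr5 (0.866 CPM against 0.216 to 0.425 CPM, ratio 0.678). AhR-KO library 20 was the highest for Gpr82 (0.0151 CPM against 0 CPM in the other 5, ratio 1). AhR-KO library 35 was the highest for Igha (0.0937 CPM against 0 CPM in the other 5, ratio 1). WT library 17 was the highest for Il22 (0.378 CPM against 0.0122 to 0.142 CPM, ratio 0.646). WT library 34 was the highest for Cd7 (7.88 CPM against 2.04 to 3.88 CPM, ratio 0.684).

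The genotype effect without stimulation differed from that after LPS, by the interaction term, for 45 of the genes named. Values are the log2 fold change of AhR-KO over WT without stimulation, that after LPS, and the difference, LPS minus unstimulated. The fitted effect was negative without stimulation and positive after LPS for Ahr (-1.93, 1.36, 3.29), Ccnd1 (-2.20, 0.44, 2.65), Cd40 (-2.75, 0.97, 3.72), Cmpk2 (-1.29, 1.12, 2.42), Hdc (-3.13, 0.66, 3.79) and Ier3 (-1.53, 0.61, 2.14). The same order of signs was fitted for Rsad2 (-1.58, 1.27, 2.85), Slc2a3 (-1.92, 1.21, 3.13), Tap2 (-0.52, 0.41, 0.93), Tfrc (-2.08, 0.16, 2.24), Tiparp (-0.52, 0.96, 1.48) and Usp18 (-2.17, 0.78, 2.95). It was positive without stimulation and negative after LPS for Clec9a (1.34, -0.95, -2.29), Cyp4a12a (2.41, -0.87, -3.27), Cyp4a12b (3.74, -0.12, -3.85), Ephx1 (1.42, -0.24, -1.66), Lgmn (1.08, -0.16, -1.24) and Pf4 (1.39, -0.51, -1.91). Further genes of this order were Ppbp (2.81, -0.55, -3.36) and Slc27a3 (1.74, -2.62, -4.35). The decrease was smaller after LPS for Cd34 (-4.35, -2.84, 1.504), Cd86 (-2.85, -0.55, 2.30), Cdh17 (-8.01, -2.58, 5.43), Dusp6 (-1.49, -0.18, 1.31), Gadd45b (-1.77, -0.15, 1.61) and H2-Oa (-2.17, -0.63, 1.54). Smaller decreases after LPS were also fitted for H2-Ob (-4.15, -0.23, 3.92), Igfbp4 (-3.51, -0.69, 2.82), Il2ra (-5.02, -0.59, 4.43), Itgb7 (-5.18, -1.74, 3.43), Ly6a (-7.41, -1.58, 5.83) and Mycl (-4.25, -0.81, 3.44). Smaller decreases after LPS were also fitted for Rgs18 (-5.86, -3.32, 2.54), Scin (-4.48, -2.32, 2.17), Serpinb2 (-3.59, -0.34, 3.24) and Socs1 (-1.63, -0.006405, 1.63). The increase was smaller after LPS for Cxcl3 (2.15, 0.79, -1.35) and H2-M2 (3.52, 1.06, -2.46). The effect was of the same sign and larger after LPS for Il33 (2.58, 5.33, 2.75), Mfge8 (-3.85, -6.09, -2.24) and Slc7a5 (-1.29, -2.66, -1.37). No fold is given for 9130015A21Rik, Cd7, Slamf1 and Tspan8, which had no more than 3 reads over a group. The adjusted p of their interaction (edgeR) was 0.000208, 0.00837, 0.00212 and 0.0153, in that order. Values near 0 after LPS do not show that the genotypes were alike there.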

How the results depend on the processing

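Over 26 alternatives, between 492 and 744 of the 744 DEGs were called again, none with the opposite sign. There were 152 higher and 592 lower genes. The number of higher genes was 263 with the length slope of each library as a covariate and 303 with no minimum fold change, and the number of lower genes was 383 with a mean of at least 1 CPM required, where 12462 genes were tested. With each library left out in turn the DEGs numbered 669 (without WT library 17) to 796 (without WT library 33), the higher ones 137 to 167 and the lower ones 529 to 629. Of the 127 DEGs named in the report, 119 were called under every alternative in which they were tested, and no value named there changed sign where it was called. The calls of Fam110c and Rnf144a ended in a fit of the 12 unstimulated libraries alone, those of Il22, Serpinb2 and Tnfsf15 with limma-voom, that of Lgmn under scaling to total library size, and that of Nectin2 without AhR-KO library 27 or 28. Mmp12 lost its call under 7 alternatives, among them total library size and the omission of the libraries of low length slope or without Y-linked counts. The cause was not tested. Genes named only among the other observations were not followed through the alternatives. Counts of DEGs per gene list stayed within 1.5 times in 3399 cases and moved further in 293, most lists having few DEGs. Single libraries could not be paired because no group shares a replicate number with another. The library numbers form runs of 8 with 2 of each group, and with the run as a factor 933 genes were DEGs, 227 higher and 706 lower. WT library 34 and LPS-treated WT library 38 were both almost without Y-linked counts, and if LPS-treated and unstimulated libraries share animals, the interaction test does not take it into account. The labels do not say which animal gave which library, the libraries were made from bulk RNA of cultures that also held reads of granulocyte, mast cell and progenitor genes, and strain alleles near Ahr go with the genotype. For genes with only a handful of reads the depth does not fix the size of a fold.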

Other observations

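Some gene families were picked out by the start of their symbols after their values had been seen, and their counts are given as a description, without a test of the family. Of 6 Gimap genes tested, GTPases of lymphoid and progenitor cells, Gimap1, Gimap5, Gimap6 and Gimap9 were DEGs and lower in AhR-KO BMDMs, and the median log2 fold change of the 6 was -4.62. All 7 stefin A genes were lower, with a median of -3.70, although their sequences are nearly identical and their reads cannot be told apart with certainty. Of 6 Ly6 genes 5 were lower (median -3.11), and of 5 Ifitm genes Ifitm1, Ifitm3 and Ifitm6 were lower (median -2.87). The neutrophil marker sum and the progenitor marker sum, which was mostly Cd34 in WT libraries, moved with these families, and their part was not tested.

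Of 25 sulphotransferase and sialyltransferase genes, which place terminal sulphate or sialic acid on glycans, 9 were lower and none higher, with a median log2 fold change of -0.78. The 9 were Chst3, Chst10, Chst13, Chst15, Gal3st2, Gal3st2b, St3gal6, St8sia1 and St8sia4. Of 11 septin genes, which form cytoskeletal filaments, Sept1, Sept3 and Sept4 were lower, and the median over the 11 was -0.09. Both Cyp4a12 copies were higher, with a median of 3.07. Over all genes tested the median was -0.0057.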
